A study of Equus caballus with 22 samples.

Results

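TLR4, CD14 and PLA2G2A are genes of innate defence, and their transcripts were measured here in the endometrium, the inner layer of the mare's uterus, early in pregnancy. Every array probe that is not a control and that carries a horse RefSeq transcript of these genes was taken, whatever its values. That gave 3 of the 675 genes with a named probe, and 8 of the 43603 probes of the array: 2 of TLR4 (NM_001099769), 1 of CD14 (NM_001081927) and 5 of PLA2G2A (NM_001100113). All 8 were well above background on all 22 arrays, so all of them passed the filter on dim probes, which 38461 probes passed in all.

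The study took endometrial biopsies from warmblood mares on 2 days. At day 12, 6 mares (numbered 1 to 6) each gave a pregnant sample, taken after the embryo had been recovered, and a control sample at the matching stage without pregnancy. At day 8, 5 mares (numbered 1, 2, 4, 5 and 6) gave a pregnant and a control sample in the same way. The labels give no agent, genotype or age, and they do not say whether a mare number marks the same animal on both days. Each sample was a whole biopsy hybridised to a 1-colour Agilent array, so fewer cells of a type and less RNA per cell cannot be told apart. Levels are given on a log2 scale on which 0 is the 75th percentile of each array's intensities, and levels of different probes cannot be compared with each other.

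TLR4 is the receptor that senses lipopolysaccharide, a component of the outer membrane of Gram-negative bacteria. CD14, a surface and soluble protein made mainly by monocytes and macrophages, takes up lipopolysaccharide and hands it to the complex of TLR4 with LY96, which signals to NF-kB and to inflammatory cytokine genes. PLA2G2A is a secreted phospholipase that cleaves membrane phospholipids, which makes it antibacterial and frees fatty acids from which prostaglandins are made. In the mare the uterus clears bacteria and semen after breeding, and innate sensing is part of that response.

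Genes of epithelium and of stroma were detected, which does not by itself identify the tissue, since most spots were well above background. ESRP1, a splicing factor of epithelial cells, and DCN, the matrix proteoglycan decorin of stroma, were well above background on 22 of 22 arrays. The 75th percentile of the intensity ranged from 577 to 1863 units, between 74.2% and 92.9% of spots were well above background, and no spot was saturated. Both arrays of a mare always shared a slide. Day 12 used 4 slides and 3 scan days, day 8 used 3 other slides and 2 other scan days, and the image software differed as well (version 10.5.1.1 for day 12 and 10.7.3.1 for day 8). Day and these technical factors cannot be told apart in any comparison of day 12 with day 8. The number of arrays limits the precision of all values.

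CD14, the co-receptor, had its highest levels in pregnant endometrium at day 12. Its probe A_69_P001306 had a lowest level of 1.16, a median of 1.40 and a highest level of 1.85 in the 6 day 12 pregnant samples, against 0.59, 0.92 and 1.49 in the 6 day 12 control samples. At day 8 the levels were 0.70, 0.33, 0.58, 0.49 and 0.19 in the pregnant samples of mares 1, 2, 4, 5 and 6, against 1.09, -0.15, 1.08, 0.26 and 0.15 in their control samples. The day 12 groups overlapped through the control sample of mare 5, and at day 8 the control samples spread beyond the pregnant ones on both sides.

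CD14 averaged 1.47 ± 0.24 in day 12 pregnant samples and 0.96 ± 0.32 in day 12 control samples (SD, n = 6 each), and 0.46 ± 0.20 in day 8 pregnant and 0.49 ± 0.57 in day 8 control samples (SD, n = 5 each). By mean, day 12 pregnant samples ranked highest, then day 12 control samples, with both day 8 groups at the bottom. Neighbouring groups in this order did not differ past the thresholds of the tests below, and the step between the day 8 groups was far smaller than their spread.

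Within mares at day 12, the CD14 level was higher in the pregnant sample than in the control sample in 5 of 6 mares. The differences were 0.68, 1.05, 0.28, 0.59, -0.13 and 0.57 in mares 1 to 6, and only mare 5 was lower. Among all probes, 14% were higher in at least 5 of the 6 mares. The mean difference was 0.51 ± 0.16 log2 (SE, 95% interval 0.16 to 0.85), a ratio of 1.42. It did not pass the threshold of 0.05 in limma (adjusted p = 0.214 by Benjamini-Hochberg over all probes, unadjusted p = 0.00772), nor did a two-sided exact sign-flip test pass (p = 0.0625, where 6 mares allow no p below 0.03125). None of the 8 probes of the 3 genes passed with pregnancy at day 12, where 0.265% of all probes did; at an unadjusted p under 0.05, CD14 was the 1 of the 8, and 2182 probes were higher and 2615 lower of 38461. With the normexp background correction CD14 gave 0.32, where the median of all probes was 0.33. By slide, the mean difference was 0.48 on slide 1 (2 mares), 1.05 on slide 2 (1 mare), 0.58 on slide 3 (2 mares) and -0.13 on slide 4 (1 mare).

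At day 8 the CD14 level was higher in the pregnant sample in 3 of 5 mares, by 0.49 in mare 2, 0.23 in mare 5 and 0.04 in mare 6, and lower in mares 1 and 4. The mean difference was -0.03 ± 0.17 log2 (SE, n = 5 mares, adjusted p = 0.993 by limma), with a 95% interval of -0.40 to 0.35. The difference between the pregnancy effects, day 12 minus day 8, was 0.53 ± 0.23 log2 for CD14 (SE, 6 and 5 mares). It did not pass after adjustment in limma (adjusted p = 0.462, unadjusted p = 0.0418).

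CD14 was higher at day 12 than at day 8 in pregnant endometrium. The lowest of the 6 day 12 pregnant samples lay 0.46 log2 above the highest of the 5 day 8 pregnant samples. The difference was 1.01 ± 0.15 log2 (SE, a 2.01-fold higher level, 95% interval 1.59 to 2.54, adjusted p = 0.00183 by limma). The two-sided exact permutation test gave p = 0.00216, the smallest that 6 against 5 samples allow. In this comparison 11.1% of all probes passed as higher, and 5.38% were higher without overlap between the groups. Among control samples the CD14 difference was 0.47 ± 0.26 log2 and did not pass (adjusted p = 0.270 by limma), with groups that overlapped. The call in pregnant samples was lost with the normexp background correction (0.81, adjusted p = 0.173 by limma, where the median of all probes was 0.38) and in the authors' deposited value table (1.14, adjusted p = 0.117), and it held without any 1 mare number (adjusted p between 0.00457 and 0.0119).

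**Figure D1:**
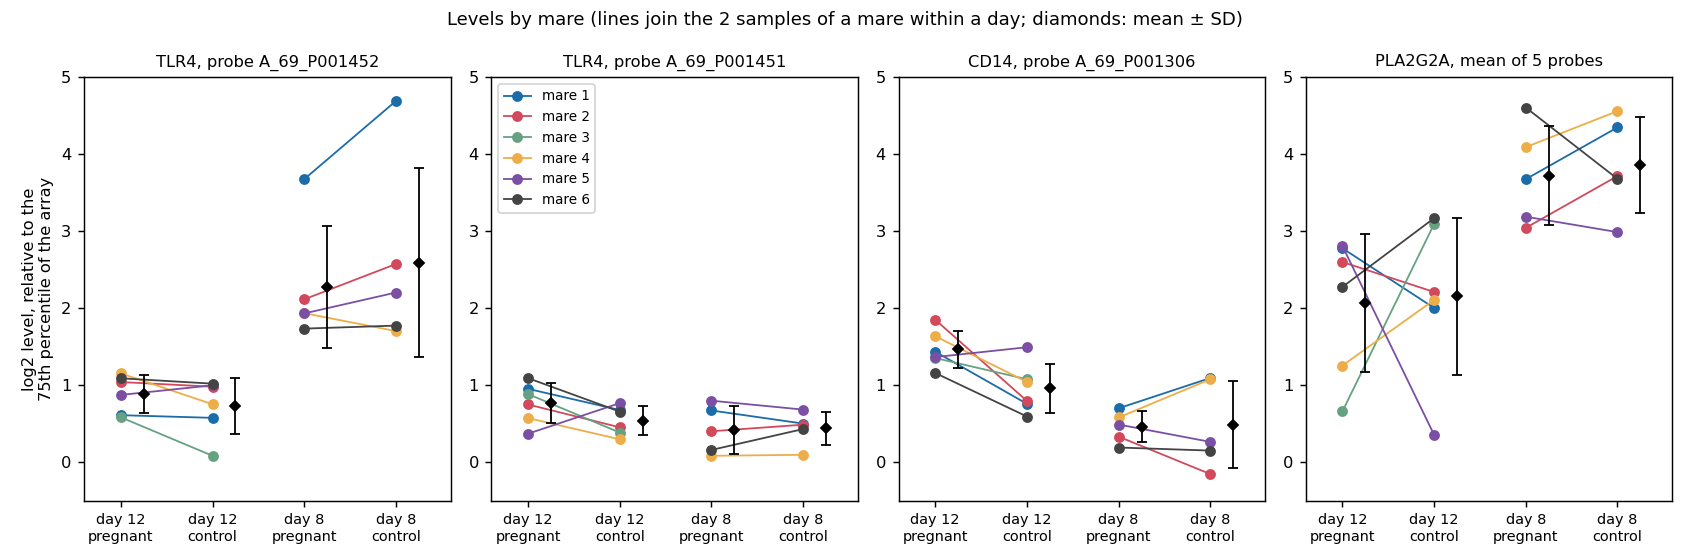
Log2 level, with 0 at the array's 75th percentile of intensity (vertical axis), in the 4 groups (horizontal axis) for both TLR4 probes, CD14 and the mean of the 5 PLA2G2A probes. Points are samples, lines join the pregnant and control sample of a mare within a day, and diamonds give the mean ± SD (n = 6 at day 12, n = 5 at day 8). Probe A_69_P001452 of TLR4 lies at 1.15 or below in all day 12 samples and at 1.70 or above in all day 8 samples, while probe A_69_P001451 stays between 0.08 and 1.09 in all 4 groups.

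TLR4, the receptor itself, gave different answers for day through its 2 probes. Probe A_69_P001452, the brighter one, had a lowest level of 0.58, a median of 0.96 and a highest level of 1.15 in the day 12 pregnant samples, against 0.08, 0.87 and 1.02 in the day 12 control samples. At day 8 its levels were 3.67, 2.11, 1.94, 1.93 and 1.73 in the pregnant samples of mares 1, 2, 4, 5 and 6, against 4.69, 2.57, 1.70, 2.20 and 1.77 in their control samples. Every day 12 sample was below every day 8 sample of the same state, and both samples of mare 1 at day 8 stood well above the others.

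This probe averaged 0.89 ± 0.25 in day 12 pregnant and 0.74 ± 0.36 in day 12 control samples (SD, n = 6 each), and 2.28 ± 0.79 in day 8 pregnant and 2.59 ± 1.23 in day 8 control samples (SD, n = 5 each). Day 8 control samples ranked highest by mean, then day 8 pregnant, day 12 pregnant and day 12 control samples. The groups of 1 day did not differ beyond their spread. For the pregnant samples the difference of day 12 over day 8 was -1.39 ± 0.31 log2 (SE, a 2.61-fold lower level, adjusted p = 0.00985 by limma). For the control samples it was -1.85 ± 0.47 log2 (SE, 3.61-fold lower, adjusted p = 0.0387 by limma). The two-sided exact permutation test gave p = 0.00216 in both, the smallest it allows. Among all probes 8.24% of the pregnant comparison and 4.47% of the control comparison were lower without overlap. Without mare number 1 on both days, the differences were -0.98 (adjusted p = 0.00458) in pregnant and -1.30 (adjusted p = 0.0381) in control samples. In pregnant samples the call was lost with the normexp background correction (adjusted p = 0.0692 by limma) and in the authors' deposited value table (adjusted p = 0.0682). In control samples it was lost with slide (0.0871) or scan day (0.141) as a random block, and when any other single mare number was left out (adjusted p between 0.0702 and 0.0956 by limma).

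Probe A_69_P001451 of the same TLR4 transcript showed no such difference. Its lowest, median and highest levels were 0.37, 0.82 and 1.09 in the day 12 pregnant samples, against 0.30, 0.56 and 0.77 in the day 12 control samples. At day 8 they were 0.67, 0.40, 0.08, 0.80 and 0.16 in the pregnant samples of mares 1, 2, 4, 5 and 6, against 0.50, 0.49, 0.10, 0.68 and 0.43 in their control samples. All 4 groups overlapped, and mare 1 at day 8 did not stand apart on this probe. The difference of day 12 over day 8 was 0.35 ± 0.18 log2 in pregnant samples (SE, adjusted p = 0.176 by limma) and 0.10 ± 0.15 log2 in control samples (adjusted p = 0.710), with 95% intervals of -0.05 to 0.74 and -0.23 to 0.43. Neither interval holds the value of the other TLR4 probe.

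The disagreement between the TLR4 probes was tested as a difference within each array, A_69_P001452 minus A_69_P001451. This difference lay between -0.34 and 0.58 in day 12 pregnant samples, against 1.13 to 3.00 in day 8 pregnant samples. It lay between -0.30 and 0.53 in day 12 control samples, against 1.34 to 4.19 in day 8 control samples. The shift of day 12 minus day 8 was -1.73 in pregnant and -1.95 in control samples (exact permutation p = 0.00216 for each, two-sided, the smallest possible). The permutation took samples as separate and did not account for shared slides. By slide the difference ranged from -0.34 to -0.10 on slide 1 and from 0.00 to 0.58 over the other day 12 slides. At day 8 it ranged from 1.13 to 1.85 on slides 6 and 7 and from 1.71 to 4.19 on slide 5. Over the 22 arrays the levels of the 2 TLR4 probes correlated at r = -0.16, and their deviations from the group means at r = 0.28. With the mean of both probes in place of A_69_P001452, the difference of day 12 over day 8 was -0.52 in pregnant samples (adjusted p = 0.0897 by limma) and -0.88 in control samples (adjusted p = 0.0720), so neither passed.

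**Figure D2:**
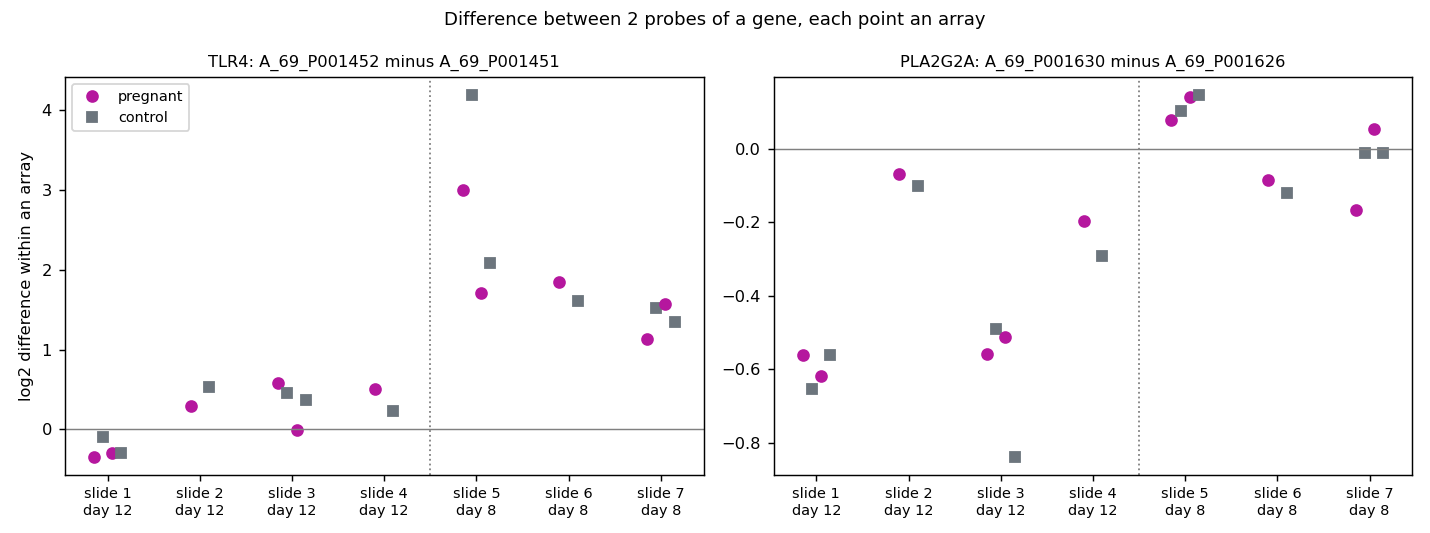
Difference in log2 level between 2 probes of a gene within an array (vertical axis) by slide (horizontal axis, day 12 on slides 1 to 4 and day 8 on slides 5 to 7); circles are pregnant and squares control samples. For TLR4 all day 12 arrays lie at 0.58 or below and all day 8 arrays at 1.13 or above, and for PLA2G2A slides 1 and 3 hold the lowest values.

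With pregnancy at day 12, the TLR4 probes gave small mean differences of the same sign. At day 12, A_69_P001452 was higher in the pregnant sample in 5 of 6 mares, by a mean of 0.16 ± 0.14 log2 (SE, adjusted p = 0.696 by limma). A_69_P001451 was higher in 5 of 6 mares as well, by 0.23 ± 0.11 log2 (adjusted p = 0.430 by limma), where 14% of all probes were higher in at least 5 of the 6. On both probes mare 5 was the one that was lower, with -0.12 on the first and -0.40 on the second probe, and it was also the only mare lower for CD14. Its pregnant array had the most outlier spots of any array (156), and its pair was the only one on slide 4. The part of array or slide in its values was not tested. The within-mare differences of the 2 probes differed by -0.07 at day 12 (exact sign-flip p = 0.531, two-sided) and by -0.29 at day 8 (exact p = 0.375, two-sided, with 0.0625 the smallest possible).

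At day 8, A_69_P001452 of TLR4 was lower in the pregnant sample in 4 of 5 mares, with differences of -1.01, -0.46, 0.23, -0.27 and -0.04 in mares 1, 2, 4, 5 and 6. Among all probes, 22.4% were lower in at least 4 of the 5 mares. The mean was -0.31 ± 0.16 log2 (SE, adjusted p = 0.834 by limma), and A_69_P001451 gave -0.02 ± 0.12 (adjusted p = 0.994). By mare, A_69_P001451 gave 0.17, -0.09, -0.01, 0.12 and -0.27 in the same order. Its sign was opposite to that of A_69_P001452 in mares 1, 4 and 5. The pregnancy effects of the 2 days differed by 0.47 ± 0.21 log2 for A_69_P001452 (adjusted p = 0.472 by limma) and by 0.25 ± 0.17 for A_69_P001451 (adjusted p = 0.611), so no TLR4 probe passed.

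PLA2G2A, the secreted phospholipase, was lower at day 12 than at day 8, and within mares at day 12 it differed in both directions. Probe A_69_P001626, the brightest, had a lowest level of 1.02, a median of 2.61 and a highest level of 3.08 in day 12 pregnant samples, against 0.51, 2.41 and 3.64 in day 12 control samples. At day 8 it had 3.60, 2.94, 4.13, 3.29 and 4.52 in the pregnant samples of mares 1, 2, 4, 5 and 6, against 4.25, 3.60, 4.61, 2.95 and 3.62 in their control samples. The day 12 levels reached far lower than those of day 8, with the day 12 pregnant sample of mare 3 and the day 12 control sample of mare 5 at the bottom, and the 2 days overlapped at the top of the day 12 range.

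A_69_P001626 averaged 2.30 ± 0.81 in day 12 pregnant and 2.44 ± 1.11 in day 12 control samples (SD, n = 6 each), and 3.70 ± 0.63 in day 8 pregnant and 3.81 ± 0.64 in day 8 control samples (SD, n = 5 each). Both day 8 groups ranked above both day 12 groups by mean. Groups of 1 day did not differ beyond their spread, and the step between day 8 pregnant and day 12 control samples was not tested.

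Between days, all 5 PLA2G2A probes were lower at day 12 in pregnant samples. The differences were -1.39 ± 0.40 log2 for A_69_P001626 (SE, 2.63-fold lower, adjusted p = 0.0278 by limma), -1.56 for A_69_P001627, -1.74 for A_69_P001628, -1.78 for A_69_P001629 and -1.82 ± 0.45 for A_69_P001630 (3.52-fold lower, adjusted p = 0.0142 by limma). All 5 passed the threshold, and the groups did not overlap on the last 4, where 8.24% of all probes were lower without overlap. In control samples the differences ran from -1.36 ± 0.51 for A_69_P001626 (adjusted p = 0.117 by limma) to -1.87 ± 0.45 for A_69_P001630 (3.66-fold lower, adjusted p = 0.0340). There A_69_P001628, A_69_P001629 and A_69_P001630 passed and A_69_P001626 and A_69_P001627 did not. Only A_69_P001630 had control groups without overlap, where 4.47% of all probes were lower without overlap. The two-sided exact permutation p for A_69_P001630 was 0.00216 in pregnant and 0.00433 in control samples.

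Over the 3 genes, 7 of the 8 probes passed between the days in pregnant samples, 6 of them lower, where 24.3% of all probes passed and 13.1% passed as lower. In control samples 4 of the 8 passed, all lower, where 7.1% of all probes passed and 4.62% passed as lower. Of the probes that passed in pregnant samples 45.9% were higher, against 34.7% with the normexp background correction, and in control samples 34.9%, against 3.9% in the authors' deposited value table. The 5 PLA2G2A probes share a transcript and are not 5 separate findings. In limma, the calls of PLA2G2A were lost on all 5 probes in pregnant samples with scan day as a random block (adjusted p between 0.0768 and 0.131) and with the normexp background correction (0.0591 to 0.0969). With slide as a random block or all 22 arrays in 1 fit, 3 of the 5 lost it (0.0501 to 0.123). The 3 probes called in control samples lost the call with slide (0.0638 to 0.0727) or scan day (0.178 to 0.193) as a random block and with all 22 arrays in 1 fit (0.0596 to 0.0710), and A_69_P001628 also with no filter on dim probes (0.0508). In pregnant samples the calls were also lost without mare number 4 (0.0636 to 0.113) and without mare number 6 (0.0538 to 0.0854), and in control samples without mare number 1, 2, 4 or 6 (0.0619 to 0.140).

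**Figure D3:**
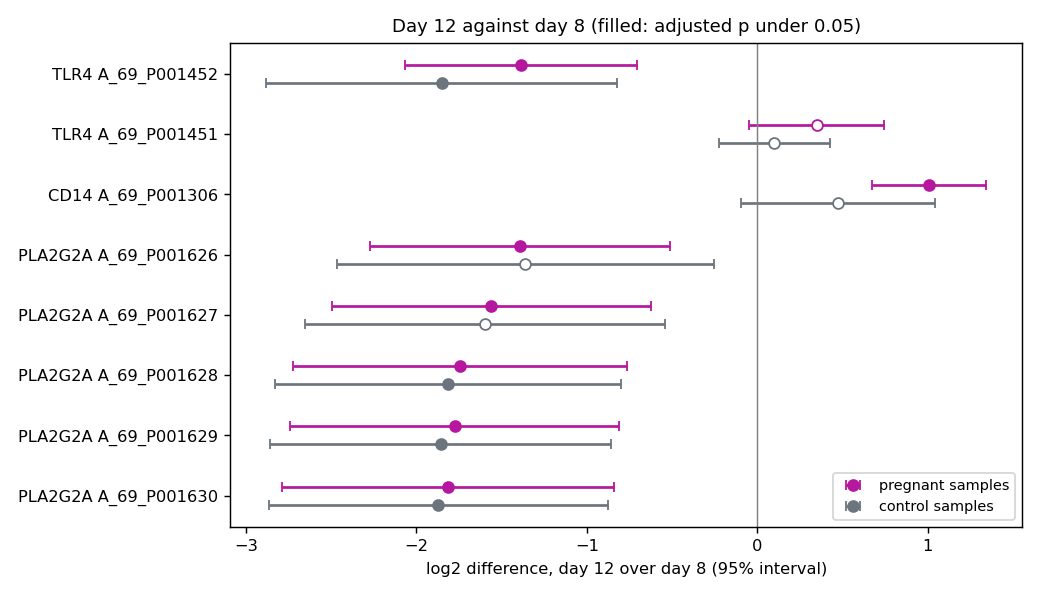
Log2 difference of day 12 over day 8 (horizontal axis) for each of the 8 probes (vertical axis), in pregnant samples (6 against 5) and in control samples (6 against 5). Points are limma estimates, bars are 95% intervals and filled points have an adjusted p under 0.05. The TLR4 probe A_69_P001452 and the PLA2G2A probes lie between -1.87 and -1.36, CD14 lies at 1.01 and 0.47, and the TLR4 probe A_69_P001451 lies at 0.35 and 0.10.

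Within mares, PLA2G2A had no common direction with pregnancy at day 12. The pregnant sample was higher by 0.71 in mare 1, by 0.36 in mare 2 and by 2.39 in mare 5 on A_69_P001626, and the differences were -2.40 in mare 3, -0.83 in mare 4 and -1.07 in mare 6. Mare 5 was thus 5.24-fold higher and mare 3 was 5.28-fold lower in the pregnant sample. The mean was -0.14 ± 0.48 log2 (SE, adjusted p = 0.932 by limma), with a 95% interval of -1.20 to 0.92.

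The spread of the PLA2G2A differences over mares was large for this array. Their SD at day 12 was 1.66 on A_69_P001626, and 0.84% of all probes had an SD at least as large, the median over all probes being 0.335. At day 8 the SD was 0.70, and 11.4% of all probes had one at least as large. By slide at day 12, the mean difference was -0.85 on slide 1 (mares 1 and 3, of opposite sign), 0.36 on slide 2 (mare 2), -0.95 on slide 3 (mares 4 and 6, of like sign) and 2.39 on slide 4 (mare 5).

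The 5 PLA2G2A probes gave the same picture of each mare. They had the same sign in all 11 mares, and their within-mare differences spanned between 0.03 and 0.33 log2 in a mare. In mare 3 at day 12 they lay between -2.46 and -2.40, and in mare 5 between 2.39 and 2.52. Over the 22 arrays the correlation between pairs of PLA2G2A probes was r = 0.97 to r = 1.00 in levels.

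At day 8 the PLA2G2A differences of A_69_P001626 were -0.65, -0.66, -0.48, 0.34 and 0.90 in mares 1, 2, 4, 5 and 6, a mean of -0.11 ± 0.53 log2 (SE, adjusted p = 0.991 by limma). Mares 5 and 6 were higher in the pregnant sample and the other three lower, so the direction was mixed at day 8 as well. The difference between the pregnancy effects was -0.03 ± 0.72 log2 (adjusted p = 0.992 by limma), with a 95% interval of -1.60 to 1.54. At day 8 none of the 8 probes of the 3 genes passed and 0% of all probes did, with 903 higher and 1340 lower of 38457 at an unadjusted p under 0.05. Of the 8, 0 had an unadjusted p under 0.05 at day 8. For the difference between pregnancy effects none of the 8 passed, where 0.0104% of all probes did. At an unadjusted p under 0.05, 2 of the 8 (CD14 and TLR4 A_69_P001452) were higher there, as were 1887 of all probes, and 2156 were lower.

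**Figure D4:**
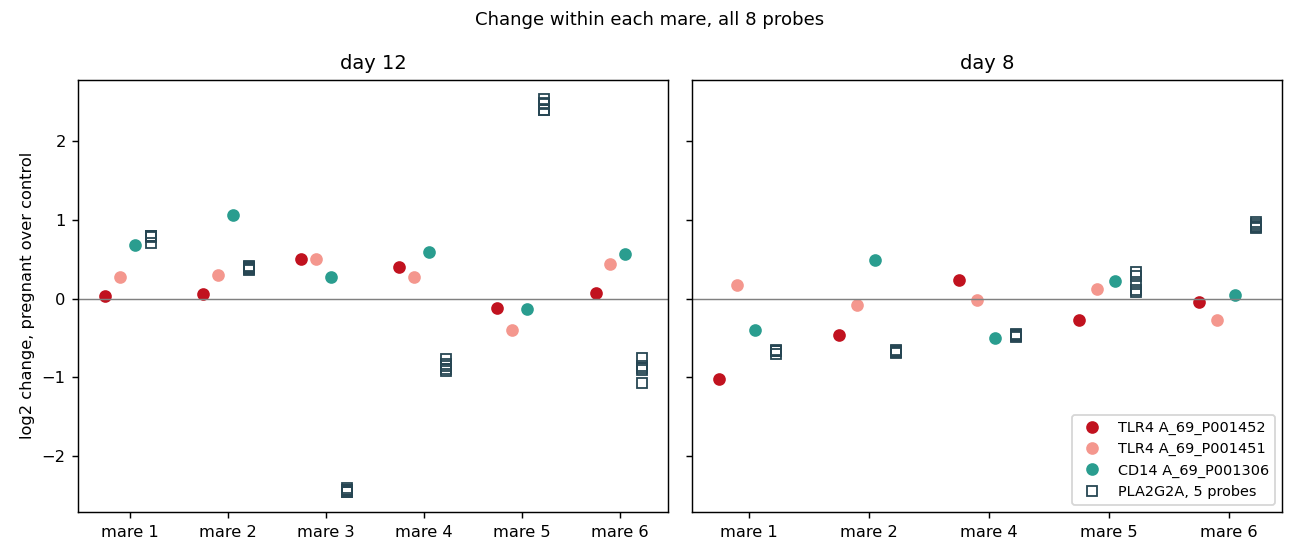
Log2 difference of the pregnant over the control sample (vertical axis) in each mare (horizontal axis) at day 12 and day 8 for all 8 probes; squares are the 5 PLA2G2A probes. At day 12 CD14 is above 0 in 5 of 6 mares, and the PLA2G2A probes lie close together within a mare while running from -2.46 in mare 3 to 2.52 in mare 5.

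The PLA2G2A probes lay at slightly different distances between the days. The pair with the largest and smallest day difference, A_69_P001630 and A_69_P001626, is described with no test, since it was picked among 10 pairs for that. A_69_P001630 minus A_69_P001626 within an array averaged -0.42 ± 0.23 in day 12 pregnant samples (SD, n = 6) and 0.00 ± 0.13 in day 8 pregnant samples (SD, n = 5). In control samples it averaged -0.49 ± 0.26 at day 12 and 0.02 ± 0.10 at day 8. At day 12 it ran from -0.84 to -0.49 on slides 1 and 3 and from -0.29 to -0.07 on slides 2 and 4, and the part of slide in it was not tested. With pregnancy the within-mare differences of this pair differed by 0.07 at day 12 and by -0.02 at day 8.

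The 3 genes had no common pattern from sample to sample. Over the 22 arrays, which fall into groups by day and slide, the level of CD14 correlated with that of TLR4 A_69_P001452 at r = -0.39 and with that of PLA2G2A (mean of its 5 probes) at r = -0.55, while TLR4 A_69_P001452 and PLA2G2A correlated at r = 0.57. After the 4 group means were removed the correlations were r = 0.35 for CD14 with TLR4, r = -0.04 for CD14 with PLA2G2A and r = -0.01 for TLR4 with PLA2G2A. The other TLR4 probe, A_69_P001451, gave other values: r = 0.34 with CD14 and r = -0.56 with PLA2G2A in levels, and r = -0.15 and r = -0.42 in deviations.

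Among 597 other named genes, those most like TLR4 A_69_P001452 over the 22 arrays were SUZ12 (r = 0.98), COL2A1 (r = 0.96), HTR1B (r = 0.96), CCL11 (r = 0.96) and RAVER1 (r = 0.95), each by its brightest probe. The other probes of RAVER1 had r between 0.95 and 0.97, but those of COL2A1 had r = 0.50 and r = 0.77 and those of CCL11 r between 0.55 and 0.68. The deviations of SUZ12 from the group means correlated with those of TLR4 at r = 0.96, and those of COL2A1 at r = 0.95. Over all probes 324 (0.850%) correlated with A_69_P001452 at r = 0.9 or more in level and 154 (0.404%) in deviations. For the other TLR4 probe and for the PLA2G2A probes, 0 did, and for CD14 7 did in level. On A_69_P001452 both day 8 samples of mare 1 stood well above the others. In day 8 control samples SUZ12 ran from 1.58 to 5.09 and COL2A1 from -4.92 to -1.95. The part of mare 1 in the correlations and counts of A_69_P001452 was not tested.

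The genes most like CD14 were PYGL, liver glycogen phosphorylase (r = 0.85), ABCC1, an export transporter (r = 0.85), RGS2 (r = 0.80), QKI (r = 0.79) and RBP4 (r = 0.78). In deviations from the group means these fell to r = 0.57, 0.58, 0.46, 0.45 and 0.39. The second ABCC1 probe had r = 0.74 and the 3 other RBP4 probes r between 0.76 and 0.77. Most like PLA2G2A A_69_P001626 were ESR1, the oestrogen receptor alpha (r = 0.86), LOC100033916 (r = 0.82), MAOA (r = 0.76), LUM (r = 0.75) and TRA2B (r = 0.75). In deviations from the group means these fell to r = 0.73, 0.64, 0.56, 0.55 and 0.54. The likeness of ESR1 was that of its probe A_69_P000806, and its 5 other probes had r between 0.25 and 0.44 with PLA2G2A. The 5 other LUM probes had r between 0.43 and 0.59, and those of LOC100033916 r between 0.80 and 0.84. All these values describe 22 arrays that fall into groups by day and slide.

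No other tested gene of lipopolysaccharide signalling passed. Of the 42 genes listed for this pathway, 5 had a named probe and were tested, and the 3 besides TLR4 and CD14 passed in none of the 5 comparisons. LY96, which binds lipopolysaccharide together with TLR4, differed by 0.09 ± 0.16 log2 with pregnancy at day 12 (SE, adjusted p = 0.862 by limma) and by -0.24 ± 0.16 between the days in pregnant samples (adjusted p = 0.277). TAB2, an adaptor of the TAK1 kinase, gave 0.02 and -0.23, and FOS, an immediate early transcription factor, gave 1.64 ± 0.81 (adjusted p = 0.441) and 1.05 ± 0.76 (adjusted p = 0.330). The median of these 3 genes was 0.09 with pregnancy at day 12, against -0.02 over all probes, and -0.23 between the days in pregnant samples, against -0.03.

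The other pattern receptors on the list were TLR2, TLR3, TLR7, TLR8 and TLR9, all of them tested. None passed with pregnancy on either day or in control samples between days. TLR2, which senses bacterial lipoproteins, was lower at day 12 than at day 8 in pregnant samples, with a difference of -0.48 ± 0.14 log2 (SE, adjusted p = 0.0334 by limma). It was 1 of 5 receptors, where 24.3% of all probes passed and 13.1% passed as lower. The median of the 5 was -0.02 with pregnancy at day 12, against -0.02 over all probes, and -0.18 between the days in pregnant samples, against -0.03.

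Of 17 tested cytokines and other genes that lipopolysaccharide induces, none passed with pregnancy at day 12 or day 8. Between the days in pregnant samples 1 was higher and 2 were lower by their brightest probes, where 24.3% of all probes passed: CXCL10, a lymphocyte attractant, differed by 0.59 ± 0.20 (SE, adjusted p = 0.0475 by limma), IL10, an anti-inflammatory cytokine, by -0.78 ± 0.15 (adjusted p = 0.00453), and IL12A, a subunit of interleukin 12, by -0.76 ± 0.21 (adjusted p = 0.0239). Of the 5 probes of each, 2 passed for CXCL10, 5 for IL10 and 4 for IL12A, and IL1RN, the interleukin 1 receptor antagonist, passed on 1 of its 10 probes but not on its brightest (A_69_P004856, 0.96, adjusted p = 0.0408, against 0.27, adjusted p = 0.532). In control samples, where 7.1% of all probes passed, IL10 (-1.03, adjusted p = 0.0101) and IL12A (-0.79, adjusted p = 0.0352) were lower. CXCL10 was not past the threshold there (-0.37, adjusted p = 0.554). TNF, the early cytokine of the TLR4 response, differed by -0.09 with pregnancy at day 12 and -0.42 at day 8 and passed in neither. The median of the 17 was 0.17 with pregnancy at day 12, against -0.02 over all probes, and 14 of them were above 0. At day 8 it was -0.17, against -0.01, with 7 above 0.

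Of 6 tested genes of phospholipases A2 and eicosanoids besides PLA2G2A, none passed by its brightest probe with pregnancy on either day. The second probe of PTGDS, which makes prostaglandin D2, did pass at day 12 (A_69_P001906, -0.39, adjusted p = 0.0407 by limma), where the brightest gave -0.27 (adjusted p = 0.203). PTGDS was lower at day 12 than at day 8 in pregnant samples on both probes (-0.56 ± 0.17, SE, adjusted p = 0.0347 on the brightest, and -0.91, adjusted p = 0.0259). By brightest probe it was 1 of the 6 genes, where 24.3% of all probes passed and 13.1% passed as lower. None of the 6 genes passed in control samples. PLA2G4A, the cytosolic phospholipase that frees arachidonic acid, differed by 0.40 ± 0.19 in pregnant samples between days on its brightest probe (adjusted p = 0.154 by limma), while its second probe, A_69_P000641, was higher by 0.69 (adjusted p = 0.0101). With pregnancy at day 12 these probes gave 0.39 ± 0.21 (adjusted p = 0.483) and 0.45 (adjusted p = 0.418). The median of the 6 between the days in pregnant samples was -0.17, against -0.03 over all probes.

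Among 4 tested antimicrobial and acute-phase genes, CLU, the secreted chaperone clusterin, was higher at day 12 than at day 8 in pregnant samples by 0.63 ± 0.17 (SE, adjusted p = 0.0215 by limma). SFTPA1, a surfactant collectin, was lower there (-0.97 ± 0.20, adjusted p = 0.00598) and in control samples (-1.23 ± 0.20, adjusted p = 0.00839). In pregnant samples 3 of the 5 SFTPA1 probes did not pass (-0.54 to -0.47, adjusted p between 0.165 and 0.221), and in control samples 1 of the 5 did not. With 4 genes, 2 calls are set beside 24.3% of all probes in pregnant samples, and 1 call beside 7.1% in control samples. SAA and MBL2 passed in no comparison, and none of the 4 passed with pregnancy. The median of the 4 between the days in pregnant samples was -0.31, against -0.03 over all probes.

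**Figure D5:**
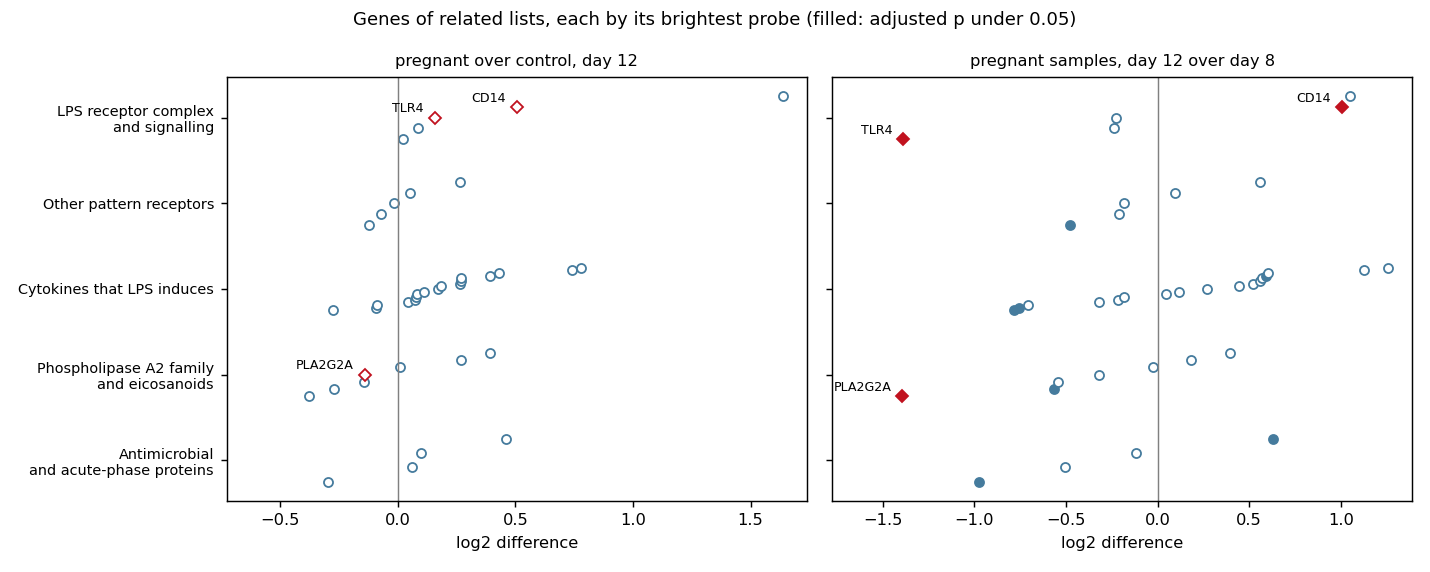
Log2 difference (horizontal axis) of genes from 5 lists (vertical axis) with pregnancy at day 12 (left, 6 mares) and for day 12 over day 8 in pregnant samples (right, 6 against 5); red diamonds are TLR4, CD14 and PLA2G2A, and filled points have an adjusted p under 0.05. No point is filled on the left, where each gene is drawn by its brightest probe. On the right CD14 lies at 1.01, TLR4 and PLA2G2A lie at -1.39, and TLR2, IL10, IL12A, CXCL10, PTGDS, CLU and SFTPA1 are filled too.

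Markers of macrophages, the cells best known for CD14, were set beside it. Of the 12 listed, CD14, CD68, ITGAX and LAPTM5 were tested, and none of the 3 besides CD14 passed in any comparison. Between the days in pregnant samples they differed by -0.23 (CD68), -0.61 (ITGAX, brightest probe) and -0.17 (LAPTM5), each with an adjusted p of 0.142 or more by limma, where CD14 differed by 1.01. The probes of ITGAX disagreed in sign: 5 of its 7 were above 0, the other 6 ran from -0.32 to 0.83, and none passed (adjusted p between 0.0879 and 0.681). CD68 and LAPTM5 had 1 probe each. CD68, ITGAX and LAPTM5, each by its brightest probe, were summed on the linear scale. The sum ranged from 6.54 to 9.68 in day 12 pregnant and from 5.21 to 9.89 in day 12 control samples. At day 8 it ranged from 7.69 to 10.8 in pregnant and from 6.74 to 10.0 in control samples, so all 4 groups overlapped. Such a sum weighs the brightest probe most and does not measure the number of macrophages. Of the neutrophil and B cell lists, 0 of 12 and 0 of 5 genes had a named probe, so those cells were not assessed here.

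Some other cell type markers differed between the days in pregnant samples, where 24.3% of all probes passed. By brightest probe, no tested marker passed for epithelium (ESRP1), mast cells (TPSB2, FCER1A), T and NK lymphocytes (CD2, GZMB, GNLY) or conceptus (PAG, CYP19A1). Of the 5 PAG probes, 1 that was not the brightest passed as higher. PECAM1 of endothelium (0.92, adjusted p = 0.00589 by limma) and TAGLN of smooth muscle (0.86, adjusted p = 0.0459) were higher at day 12, as CD14 was. All 3 PECAM1 probes passed. ITGA2B of platelets (-0.84, adjusted p = 0.00283) was lower, as PLA2G2A and the TLR4 probe A_69_P001452 were. LUM of stroma was lower on its brightest probe (-0.63, adjusted p = 0.0418), while its 5 other probes gave -0.40 to -0.22 and did not pass (adjusted p between 0.236 and 0.511), nor did DCN, the other stromal marker (-0.36, adjusted p = 0.124). Each of these lists had 1 to 3 tested genes, and the part of tissue make-up in the results for TLR4, CD14 and PLA2G2A was not tested.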

How the data were processed

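The scanner output holds spot intensities on a linear scale, deposited by the authors and made with Agilent Feature Extraction (10.5.1.1 per the submitters' processing notes; 10.5.1.1 and 10.7.3.1 per the file headers), with the background subtracted and no scaling across arrays. The value table deposited by the authors was read as log2, since it correlated with the log2 scanner intensity at 0.986 to 0.997 over features; its column medians run from 7.47 to 8.83, how it was centred and scaled is not stated, so it was an alternative only. The annotation carries accessions, which a RefSeq gene table of assembly TB-T2T matched to 1 symbol for 1394 probes (675 genes, 609 of them tested), to several for 1 probe and to none for 42208. No coordinates or sequences are printed.

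Here log2 processed intensity was taken minus the array's 75th percentile over spots that are not controls, without outlier spots (9 to 156 an array), averaged per probe. Probes well above background on at least 5 of 22 arrays were fitted in R 4.3.3 with limma 3.58.1 (two-sided moderated test, Benjamini-Hochberg over all probes, threshold 0.05). Pregnancy effects came from 1 fit of all 22 arrays with mare within day as a fixed block. Days were compared in fits of the 11 control or the 11 pregnant arrays without covariates. Exact tests permuted signs over mares or labels over samples, and took no account of slide or scan day. A gene stood by its tested probe with the highest mean signal, and genes of the related lists, of the cell type marker lists and the 5 genes most alike in level were named by that probe. The normexp alternative (offset 50) was run on median foreground and background signals. The fits were tested on simulated data. Pairing follows the labels, in which each mare has both samples. Deviations from the group means correlated between the 2 arrays of a mare at 0.288 to 0.744. In 11 of 11 mares the pregnant array correlated best with its own control. Both arrays of a mare also shared a slide, and slides 2, 4 and 6 held 1 mare each. The part of slide in these correlations was not tested. The genes and lists were chosen with earlier results of these data known.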

Additional observations from a re-analysis of the deposited data

Results flagged for a closer look

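A sample stood far from the rest of its group in 2 of the 48 groups of values examined, where chance gives about 1 in 20. The day 8 pregnant sample of mare 1 had a TLR4 A_69_P001452 level of 3.67, and the next highest of the 5 was 2.11. Its array had one of the lowest 75th percentiles of intensity of the day 8 arrays (633 units), next to the control array of the same mare (577 units), which had the highest level of this probe of all (4.69). The part of array brightness in these values was not tested. At day 12 the within-mare difference of TLR4 A_69_P001451 was -0.40 in mare 5, and the next lowest of the 6 mares was 0.27.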

How the results depend on the processing

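Calls are those of limma. CD14 was called higher at day 12 in pregnant samples under 8 of 10 alternatives, and lost that call with normexp (0.81, adjusted p = 0.173) and in the authors' value table (1.14, 0.117). TLR4 A_69_P001452 kept its call under 7 of 11 alternatives in both states. In pregnant samples it lost it with normexp (-1.46, 0.0692), the authors' table (-1.23, 0.0682), the mean of its probes (-0.52, 0.0897) and the replicate block by mare number (-1.32, 0.0581). In control samples it lost it with the mean of its probes (-0.88, 0.0720), that block (-1.72, 0.147), slide (-1.79, 0.0871) or scan day (-1.95, 0.141) as a random block. PLA2G2A A_69_P001626 kept its call in pregnant samples under 5 of 11, and lost it with normexp (-1.51, 0.0969), the authors' table (-1.24, 0.100), the replicate block (-1.13, 0.0884), slide (-1.38, 0.0720) or scan day (-1.35, 0.131) as a random block, and all 22 arrays in 1 fit (-1.39, 0.123). All values kept their sign in these alternatives. The cause was not tested. Normexp moved the median of all probes to 0.33 with pregnancy at day 12 and to 0.38 between days in pregnant samples.

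Uncalled values changed sign for the difference of the pregnancy effects of PLA2G2A: A_69_P001626 gave 0.000582 with quantile normalisation, 0.00833 in the authors' table and 0.0431 as the mean of its probes, and with normexp A_69_P001627 to A_69_P001630 gave -0.16, -0.12, -0.10 and -0.20. Without 1 mare number in turn the ranges were -1.56 to -0.98 for TLR4 A_69_P001452, 0.90 to 1.07 for CD14 and -1.65 to -1.13 for PLA2G2A A_69_P001626 between days in pregnant samples, and -2.11 to -1.30 for TLR4 A_69_P001452 in control samples. The same ranges crossed 0 for uncalled values. With pregnancy at day 12 PLA2G2A gave -0.65 to 0.31 (A_69_P001626), -0.60 to 0.39 (A_69_P001627), -0.60 to 0.38 (A_69_P001628), -0.58 to 0.38 (A_69_P001629) and -0.58 to 0.41 (A_69_P001630). At day 8 it gave -0.36 to 0.026, -0.38 to 0.023 and -0.40 to 0.0096 (A_69_P001626, A_69_P001627 and A_69_P001630), CD14 gave -0.16 to 0.089 and TLR4 A_69_P001451 -0.063 to 0.047. For the difference of the effects PLA2G2A gave -0.42 to 0.42, -0.38 to 0.51, -0.37 to 0.54, -0.35 to 0.55 and -0.38 to 0.53 in probe order.

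Counts over all probes changed more than 1.5 times. With pregnancy at day 12, 102 passed, against 13 with normexp, 218 with probes well above background on all arrays, 287 with a trended prior, 303 in the authors' table, 41 with no replicate block, 9 with arrays of that day alone, and 22 to 977 without 1 mare number. For the difference of the effects, 4 passed, against 0 with quantile normalisation, probes above background on all arrays, the authors' table or no replicate block, 2 with no filter or slide as a fixed block, 11 with a trended prior, and 0 to 33 without 1 mare number. Between days in control samples, 2732 passed, against 1630 with normexp, 4502 with quantile normalisation, 282 in the authors' table, 31 with the replicate block, 772 and 211 with slide or scan day as a random block, 5244 with all 22 arrays, and 347 to 2046 without 1 mare number. In pregnant samples, 9331 passed, against 389 with normexp, 836 in the authors' table, 5095 with the replicate block, 3434 with scan day as a random block, and 5479 to 8832 without 1 mare number. Mare numbers were not taken to pair the days, which the labels leave unsaid: deviations of same-numbered arrays of the 2 days correlated at -0.30 to 0.32, above 0 in 8 of 10 pairs, and 3 of 10 arrays correlated best with their own number, so the values do not settle it. Under that block all 5 PLA2G2A probes in pregnant samples (adjusted p 0.0600 to 0.0884) and the 3 called in control samples (0.0954 to 0.0984) lost the call.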
